A study of Mus musculus with 48 samples.

Results

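Cells of the embryonic mouse hypothalamus that held transcripts of both *Slc17a6* and *Slc32a1* were compared between Eed-cKO and control embryos. *Slc17a6* encodes a vesicular transporter for glutamate and *Slc32a1* the vesicular transporter for GABA, and cells with both are called Glut/GABA cells below. A cell was taken when it had at least 2000 UMIs and at least 1 UMI of both genes, where a UMI is a random tag that marks 1 captured transcript molecule. A cell was left out when 3 or more of 9 endothelial, fibroblast and microglial genes were detected in it (*Cldn5*, *Pecam1*, *Flt1*, *Col1a1*, *Col1a2*, *Col3a1*, *C1qa*, *C1qb* and *Csf1r*). Of 14121 cells in the table, 11105 passed the limits on depth and on non-neural genes, and 1365 of them had both transporters, 306 from control and 1059 from Eed-cKO embryos. The other cells kept had *Slc17a6* alone (Glut cells, 2472 control and 2089 Eed-cKO), *Slc32a1* alone (GABA cells, 1333 and 581) or neither (1563 and 1702).

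Most hypothalamic neurons use either glutamate or GABA as their fast transmitter, and neurons that can load both are known from several hypothalamic areas. GABA is made by the enzymes encoded by *Gad1* and *Gad2*, and the choice between the transmitters is set during development by transcription factors that differ between forebrain, brainstem and spinal cord. *Eed* encodes a subunit of polycomb repressor complex 2 (PRC2), which places the repressive mark H3K27me3 on histones and is known for keeping Hox genes and other developmental regulators silent in tissues that do not use them.

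The hypothalamus was taken at E18.5 from 6 control embryos (Eed fl/fl, without Cre) and 9 Eed-cKO embryos (Eed fl/fl; Sox1-Cre/+), and its cells were sequenced from the 3′ end of transcripts on the ddSEQ droplet platform in 22 control and 26 Eed-cKO libraries. Both groups therefore carry the floxed allele on both chromosomes, in which exons 3 to 6 lie between the recombination sites, and they differ in the Cre, which sits in the *Sox1* locus and acts throughout the central nervous system from its earliest stages. The deletion is thus not particular to any type of hypothalamic neuron. Per the study's methods the mice had a mixed B6:129S1 background, and each hypothalamus was divided into pieces before its cells were dissociated. Libraries held 576432 to 4513505 UMIs (median 1524349), and the embryo, with the counts of all its libraries added up, served as replicate. Of the control embryos 2 were female and 4 male, and of the Eed-cKO embryos 5 were female and 4 male. The embryos came from 4 control and 6 Eed-cKO litters, as read from the library names, and 0 litters held both genotypes, so that litter and genotype cannot be told apart.

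A single library stood apart from the rest. It was 1 of the 3 libraries of control replicate 5, held 1207 cells where no other library held more than 465, and 14% of its kept cells (111 cells) were Glut/GABA cells. The other control libraries lay between 1.35% and 5.81%, and the Eed-cKO libraries between 11% and 31.6%. Without this library control had 195 Glut/GABA cells, and control replicate 5 had 15 of them, or 4.24% of its kept cells. Cell barcodes were seldom shared between libraries: of 14019 barcodes, 101 occurred in 2 or more libraries, no pair of libraries shared more than 2, and 23 Glut/GABA cells had such a barcode.

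Glut/GABA cells took a larger share of the kept cells in Eed-cKO than in control embryos, which is a description, since both transporters chose the cells. In control the share was 3.42% in the lowest embryo, 4.17% in the median and 11% in the highest, and in Eed-cKO it was 13.2%, 19.8% and 24.6%. The groups did not overlap, and the highest control embryo was replicate 5. The odds ratio of finding both genes in 1 cell, which is 1 where the transporters occur independently, was 0.0769 to 0.317 over control embryos, with a median of 0.121, and 0.929 to 1.79 over Eed-cKO embryos, with a median of 1.67. Without the largest library the odds ratio of control replicate 5 was 0.0925. An embryo contributed 32 to 126 Glut/GABA cells in control, with a median of 37.5, and 20 to 188 in Eed-cKO, with a median of 116, and the cells summed to 2501755 UMIs in control and 7570082 in Eed-cKO.

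**Figure D1:**
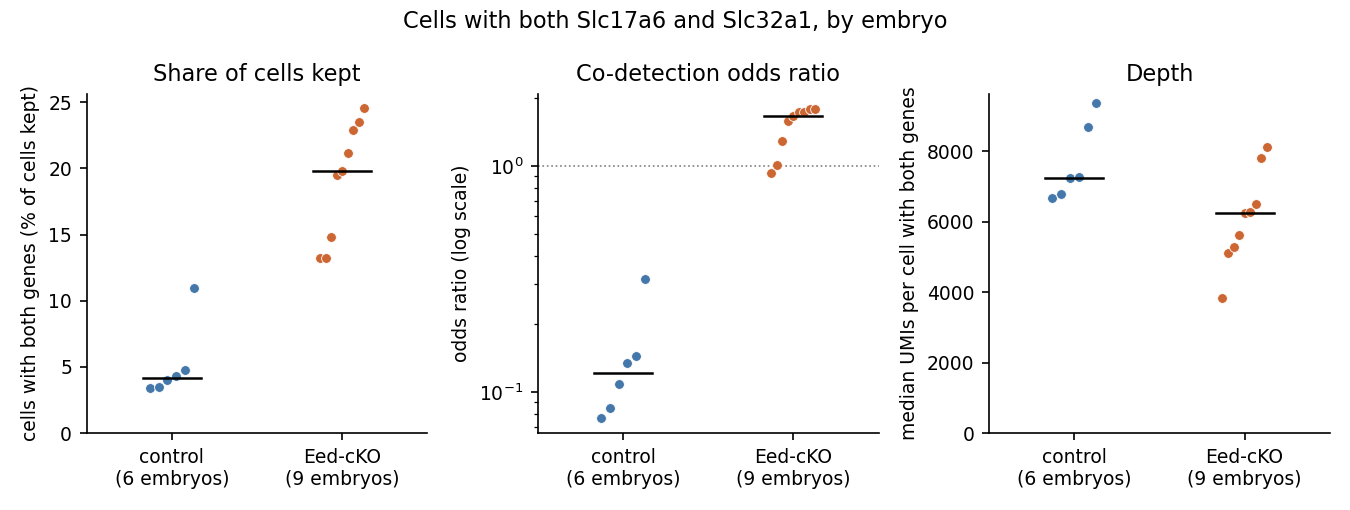
Each point is 1 embryo (6 control, 9 Eed-cKO) and each bar the group median. The share of Glut/GABA cells among the cells kept (%, left) was 3.42% to 11% in control and 13.2% to 24.6% in Eed-cKO, the odds ratio of co-detection (log axis, middle) was at most 0.317 in control embryos, and the median UMIs per Glut/GABA cell (right) overlapped between genotypes.

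Within these cells *Slc17a6* was at 275 CPM (UMIs per 1e6 UMIs of the embryo's normalized total) in the lowest control embryo, 359 in the median and 375 in the highest, against 392, 451 and 601 CPM in Eed-cKO. *Slc32a1* was at 220, 277 and 296 CPM in control and 245, 292 and 403 in Eed-cKO. Many cells lay just inside the limit: 56 control cells (18.3%) and 174 Eed-cKO cells (16.4%) had exactly 1 UMI of both genes, while 66 (21.6%) and 431 (40.7%) had 2 or more of both. Within 500 UMIs above the depth limit lay 10 control and 20 Eed-cKO Glut/GABA cells, and within 500 UMIs below it 5 and 13 neural cells with both genes were left out. A further 4 control and 32 Eed-cKO cells with both genes were left out for their non-neural genes.

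Depth, doublet scores and glial genes are given for both groups without a test, and the embryos of the genotypes overlapped in all of them. The median Glut/GABA cell had 7426 control and 6446 Eed-cKO UMIs, where Glut cells had 6743 and 5484 and GABA cells 5361 and 4549. A doublet is 2 cells caught in 1 droplet, and a Glut cell caught with a GABA cell would enter this class. Of the control Glut/GABA cells 15% were among the 6% of their library's cells with the highest doublet score, against 8.78% in Eed-cKO, while in Glut cells these shares were 7.93% and 7.52% and in GABA cells 7.88% and 8.26%. At least 3 astrocyte, oligodendrocyte, ependymal or tanycyte markers were detected in 88 control and 342 Eed-cKO Glut/GABA cells, or per embryo in 18.8% to 35% (median 26.5%) and 15% to 48.9% (median 28.3%). Gene counts without these cells are given with the tests below.

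The targeted gene did not pass the test in Glut/GABA cells. *Eed* was at 6.94, 20.8 and 30.1 CPM in the lowest, median and highest control embryo and at 0, 24.8 and 30.2 CPM in Eed-cKO, with a log2 fold change of 0.09 ± 0.28 (SE; edgeR adjusted p = 0.947). In Glut cells of the same embryos *Eed* was lower (27.5, 30.7 and 37.2 CPM in control, 14.6, 24 and 29.1 CPM in Eed-cKO, -0.41 ± 0.13, adjusted p = 0.0414), and in GABA cells it was at -0.63 ± 0.24 (adjusted p = 0.0915). The groups overlapped in all 3 classes. Tags from the 3′ end lie outside the deleted exons, so these levels do not measure the deletion itself. The genotype labels can be set beside the Hox genes too, which were found in at least 60% of the Glut/GABA cells of every Eed-cKO embryo and at most 0.794% in any control embryo.

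Genes higher in Glut/GABA cells of Eed-cKO embryos included Hox genes and 8 of 12 brainstem and spinal GABA-lineage factors tested. All 28 Hox genes tested and 3 of these 8 factors had 0 UMIs in control. They passed the count filter through Eed-cKO alone, so that they add nothing to the counts. The higher genes also included 6 of 10 immediate early and stress genes tested. In Glut cells 8 of these 10 were higher and in GABA cells 9. Among the lower genes were 4 of 5 monoamine genes tested, *Nr2f1* and the receptor genes *Grik1*, *Grin3a* and *Epha5*. Of 13024 genes tested, 525 (4.03%) passed the threshold of 0.05 on the adjusted p (edgeR's quasi-likelihood method, Benjamini-Hochberg adjustment, 6 against 9 embryos). Of these genes 366 rose (2.81%) and 159 fell (1.22%) with the mutation. The counts of the gene lists below are to be read beside these shares, and the lists were not tested against them. The median log2 fold change was 0.04 over all genes tested, 1.59 over the higher and -0.99 over the lower genes. Of the higher genes 80 had 0 UMIs in control, and of the lower genes 0 had 0 UMIs in Eed-cKO. To be tested a gene needed a UMI in 6 embryos. A gene found in control alone thus had to be in every control embryo, and a gene found in Eed-cKO alone in 6 of 9. The Eed-cKO sums also held more UMIs. The numbers and medians of higher and lower genes are therefore not set against each other. In 169 genes (1.3% of those tested) the embryos of the genotypes did not overlap, and 160 of these were among the 525. DESeq2 with its own size factors gave 278 higher and 201 lower genes, and without the largest library edgeR gave 414 and 213. With sex as a covariate, which the main test did not use, edgeR gave 357 and 144, and *Gria4* lost its call (0.46, adjusted p = 0.0979). The count fell to 112 where 2 UMIs of both transporters were asked and to 39 where every cell was first thinned to 2000 UMIs, settings that left 3 control and 8 Eed-cKO embryos with enough cells. DESeq2 did not call 16 of the genes described as changed below: *Meis2*, *Zic1*, *Zic2*, *Cdkn2c*, *Pmch*, *Cartpt*, *Slc6a3*, *Gria4*, *Nefl*, *Crym*, *Vim*, *Hes1*, *Dcn*, *Tcf7l2*, *Tcf4* and *Cbln1*. Without the cells with the highest doublet scores 450 of 12820 genes passed, and 10 of the named genes lost their call: *Meis2* (0.64), *Zic2* (0.63), *Cdkn2c* (2.77), *Pmch* (-2.27), *Gria4* (0.49), *Nefl* (0.48), *Crym* (2.31), *Vim* (0.79), *Hes1* (1.53) and *Dcn* (adjusted p = 0.0514), with the log2 fold change without these cells in parentheses. Without the cells that had 3 or more glial markers 384 of 12011 passed, and 9 lost it: *Cbx6* (-0.41), *Prdm12* (-1.92), *Kcnv1* (-1.67), *Gria4* (0.49), *Nefl* (0.61), *Vim* (0.29), *Hes1* (1.82), *Tcf7l2* (-1.15) and *Cbln1* (-0.52). With each of the 4 control and 6 Eed-cKO litters as a sample 450 of 12944 passed, and 7 lost it: *Cbx6* (-0.43, adjusted p = 0.0864), *Gria4* (0.48, 0.108), *Snap25* (0.33, 0.107), *Nefl* (0.50, 0.095), *Hes1* (2.03, 0.0807), *Tcf4* (-0.64, 0.0603) and *Nap1l5* (0.32, 0.159). Several of these lost calls had a fold change close to that with all cells, given below.

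**Figure D2:**
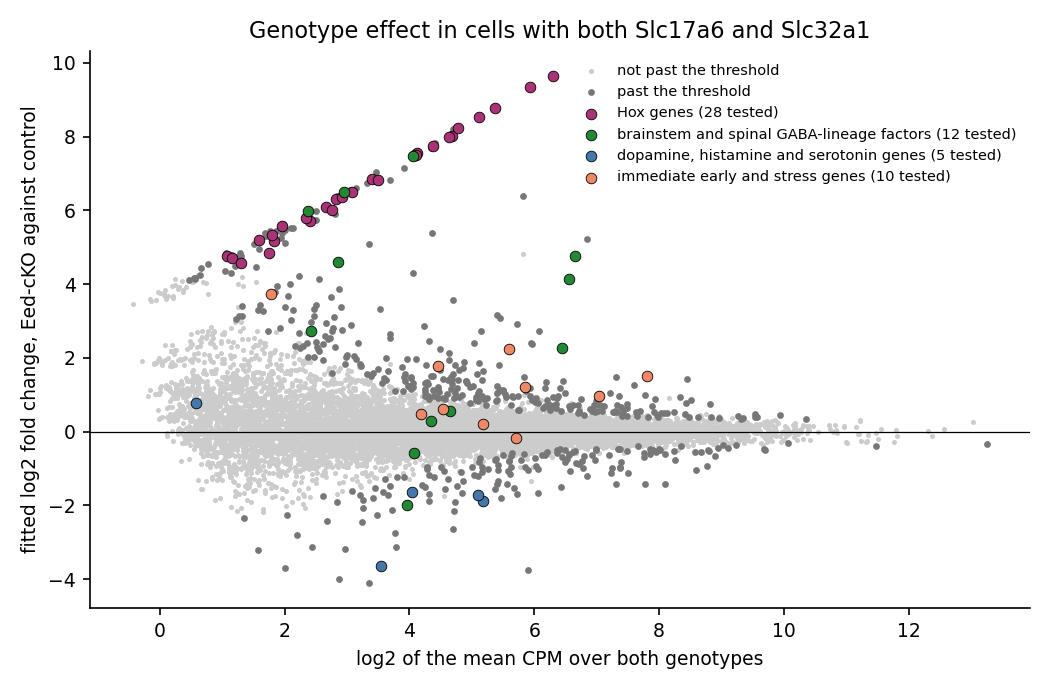
Each point is 1 of 13024 genes, with the log2 of its mean CPM over the genotypes on the horizontal axis and the fitted log2 fold change between Eed-cKO and control Glut/GABA cells on the vertical axis; dark grey marks the 525 genes past the threshold and colours mark 4 gene lists. The 28 Hox genes lie on a slanted line because all had 0 UMIs in control, so that their fitted values follow their Eed-cKO level and are no bound of the fold.

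Hox genes pattern the hindbrain and spinal cord along the body axis. Their summed level was 0 CPM in the lowest and median control embryos and 2.31 in the highest, against 815, 923 and 1063 CPM in Eed-cKO, from 2 UMIs in control and 6690 in Eed-cKO. Of 39 Hox genes listed, 34 were in the table, 28 passed the count filter and all 28 rose. Those 28 had 0 UMIs in control and passed the filter through Eed-cKO alone, so that neither their number nor their median supports anything about the group. Their fitted median log2 fold change was 6.43, and it was 3.76 with each gene at its lower bound.

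The most abundant Hox gene was *Hoxc10*, at 0 CPM in each control embryo and at 123, 151 and 257 CPM in the lowest, median and highest Eed-cKO embryo (1099 UMIs, at least 122-fold higher, with control set at 3 UMIs over the group; adjusted p = 1.1e-16). *Hoxc13* followed with 74.6, 127 and 149 CPM (at least 103-fold higher) and *Hoxb13* with 73.3, 81.7 and 96.4 CPM (at least 68.3-fold). These genes belong to the posterior end of their clusters, which is used in the most caudal part of the body. *Hoxd10* reached a median of 61.3 CPM (at least 56-fold higher), *Hoxa10* 55.1 (at least 45.6-fold), *Hoxa9* 50.3 (at least 38.7-fold), *Hoxc8* 48.9 (at least 39.1-fold) and *Hoxa7* 38.5 (at least 33-fold). Each had 0 UMIs in control and a value above 0 in every Eed-cKO embryo.

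Sequence before the start site is shown for 6 of the genes that changed, 4 that rose and 2 that fell, because CG-rich promoters are known as places where polycomb complexes bind. The runs are the 250 bases upstream of the start in RefSeq (GRCm38.p6), written 5′ to 3′ on the gene's strand, and the pairs searched, CG, are in capitals; the pair reads the same on both strands. Of 27018 promoters, 91.7% held at least 1 CG in this window, the median was 6, and 38.2% held 10 or more. None of the 6 windows overlaps an annotated gene or exon of GENCODE vM21. The window of *Hoxa10* (chr6:52240855-52241104, minus strand) held 7, that of *Dmbx1* (chr4:115939927-115940176, minus) 23, *Tal1* (chr4:115056176-115056425, plus) 6, *Bmi1* (chr2:18676768-18677017, plus) 21, *Epha5* (chr5:84417383-84417632, minus) 20 and *Chodl* (chr16:78930698-78930947, plus) 5. High and low counts thus occurred among genes that rose and genes that fell, and only 76.2% of the genes tested matched a promoter by symbol, and the groups were not compared.
Hoxa10: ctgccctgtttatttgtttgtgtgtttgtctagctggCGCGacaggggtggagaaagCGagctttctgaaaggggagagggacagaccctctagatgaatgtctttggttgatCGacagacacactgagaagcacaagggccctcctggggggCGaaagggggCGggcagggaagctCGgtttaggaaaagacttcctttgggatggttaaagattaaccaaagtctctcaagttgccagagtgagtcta
Dmbx1: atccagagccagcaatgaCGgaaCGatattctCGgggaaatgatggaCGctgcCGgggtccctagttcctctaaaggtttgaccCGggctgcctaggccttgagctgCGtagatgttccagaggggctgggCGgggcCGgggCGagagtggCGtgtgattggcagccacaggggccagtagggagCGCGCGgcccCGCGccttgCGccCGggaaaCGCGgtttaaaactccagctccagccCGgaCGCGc
Tal1: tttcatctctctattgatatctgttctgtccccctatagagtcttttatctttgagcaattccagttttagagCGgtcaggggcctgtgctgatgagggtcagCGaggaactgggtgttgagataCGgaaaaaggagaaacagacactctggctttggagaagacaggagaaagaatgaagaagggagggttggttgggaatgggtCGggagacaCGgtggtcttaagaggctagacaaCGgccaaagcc
Bmi1: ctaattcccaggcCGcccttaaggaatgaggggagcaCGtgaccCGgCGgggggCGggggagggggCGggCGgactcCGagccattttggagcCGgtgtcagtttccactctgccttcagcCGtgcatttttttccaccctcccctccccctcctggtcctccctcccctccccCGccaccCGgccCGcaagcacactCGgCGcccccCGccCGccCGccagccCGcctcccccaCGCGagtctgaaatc
Epha5: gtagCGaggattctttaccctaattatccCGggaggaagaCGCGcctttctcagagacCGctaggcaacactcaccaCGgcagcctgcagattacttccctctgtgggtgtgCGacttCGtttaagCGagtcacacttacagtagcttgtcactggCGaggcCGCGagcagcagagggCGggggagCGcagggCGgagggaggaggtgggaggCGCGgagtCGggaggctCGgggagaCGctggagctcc
Chodl: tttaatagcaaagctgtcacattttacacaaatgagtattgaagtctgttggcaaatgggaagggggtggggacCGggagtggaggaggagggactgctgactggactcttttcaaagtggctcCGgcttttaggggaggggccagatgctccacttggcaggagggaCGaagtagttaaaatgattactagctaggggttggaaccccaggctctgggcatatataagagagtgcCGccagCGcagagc

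Transcription factors of GABA neurons of brainstem, cerebellum and spinal cord were taken as a list chosen with earlier results known. Of 16 listed, 14 were in the table and 12 were tested, and 8 were higher, 1 was lower and 3 did not pass the test, with a median log2 fold change of 3.44 (3.03 with the 3 genes at 0 UMIs in control at their bounds). Those 3, *Tfap2a*, *Pax2* and *Pax8*, are among the 8 and passed the count filter through Eed-cKO alone, so that they add nothing to the count. Their summed level was 38.6, 114 and 264 CPM in the lowest, median and highest control embryo and 487, 673 and 940 CPM in Eed-cKO. The groups did not overlap, and *Tal2* was at 0 in both.

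*Tfap2b*, which encodes an AP-2 transcription factor, was at 0 CPM in 5 control embryos and at 19.7 CPM in control replicate 5, against 95.3, 199 and 381 CPM in Eed-cKO. The log2 fold change was 4.77 ± 0.39 (adjusted p = 9.1e-12). All 17 control UMIs lay in replicate 5 and in its largest library; without that embryo control was at 0 UMIs and *Tfap2b* at least 96.1-fold higher in Eed-cKO. Its relative *Tfap2a* had 0 UMIs in control and 22.1, 32.7 and 44.1 CPM in Eed-cKO (at least 27.7-fold higher, adjusted p = 8.2e-10). *Tal1*, needed for GABA neurons of the midbrain and spinal cord, rose from 0, 9.21 and 34.7 CPM to 131, 174 and 223 CPM (log2 fold change 4.14 ± 0.30, adjusted p = 1.7e-13; 4.74 without control replicate 4). All these genes were higher in every Eed-cKO embryo than in any control embryo.

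The paired-box gene *Pax2* had 0 UMIs in control and 8.38, 15.3 and 27.7 CPM in Eed-cKO (at least 14.6-fold higher, adjusted p = 3.0e-06), and its relative *Pax8* had 0 UMIs in control and 0, 11.7 and 19.1 CPM in Eed-cKO (at least 10-fold, adjusted p = 2.1e-04). *Lhx5*, a LIM homeobox gene, was at 11.2, 19.9 and 34.7 CPM in control and 18.4, 32 and 38.8 CPM in Eed-cKO and did not pass the test (log2 fold change 0.55 ± 0.26, adjusted p = 0.315). *Npff*, a neuropeptide gene, had 5 control and 23 Eed-cKO UMIs (log2 fold change 0.54 ± 0.67, adjusted p = 0.803). For these 2 genes the groups overlapped.

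Forebrain GABA-lineage factors did not share a direction. Of 16 listed and 15 tested, 2 were higher, 3 lower and 10 did not pass, with a median of -0.27 and a summed level of 949 to 1350 CPM in control and 843 to 1222 CPM in Eed-cKO. *Dlx1*, a homeobox gene of forebrain interneurons, fell from 149, 192 and 300 CPM to 93.1, 110 and 157 CPM (log2 fold change -0.99 ± 0.14, adjusted p = 2.3e-06), and the ranges overlapped. *Lhx6*, a LIM homeobox gene of interneurons and of some hypothalamic neurons, fell from a median of 36.1 to 13.5 CPM (-1.47 ± 0.29, adjusted p = 9.9e-04). It did not pass where 2 UMIs of both transporters were asked (-1.15, adjusted p = 0.429) and changed sign with cells thinned to 2000 UMIs (0.45, adjusted p = 0.938), and in Glut cells it rose (1.59 ± 0.48, adjusted p = 0.034). *Six6*, a homeobox gene of eye and hypothalamus, rose from 6.29, 32.3 and 41.7 CPM to 70.4, 77.8 and 134 CPM (1.47 ± 0.22, adjusted p = 1.2e-05), without overlap. *Meis2* was higher (0.74 ± 0.21, adjusted p = 0.0285), but its call was lost when any of 7 embryos was left out (adjusted p up to 0.129) and without the largest library (0.55, adjusted p = 0.0982).

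Factors of hypothalamic identity and of the glutamate lineage were likewise mixed. Among 24 hypothalamic factors tested of 27 listed, 6 rose and 2 fell, with a median of -0.08. Of the 6, *Vax2* passed the count filter through Eed-cKO alone and adds nothing to the count. *Vax2*, a homeobox gene of the ventral eye, had 0 UMIs in control and 22.4, 57.2 and 68.7 CPM in Eed-cKO (at least 47.1-fold higher, adjusted p = 3.7e-12). *Onecut2* rose from 102, 140 and 198 CPM to 221, 299 and 373 CPM (0.99 ± 0.14, adjusted p = 3.7e-06), again without overlap. Among 26 glutamate-lineage factors tested of 28 listed, 5 rose and 3 fell, with a median of 0.07. Of those tested, 3 had 0 UMIs in control and passed the count filter through Eed-cKO alone, so that they add nothing to the count. *Pou4f2*, known from retinal ganglion cells, and *Tlx1*, known from spinal cord and spleen, had 0 UMIs in control and medians of 19.9 and 7.63 CPM in Eed-cKO (at least 16.2-fold and 7.02-fold higher). *Tbr1*, a T-box gene of cortical glutamatergic neurons, rose from a median of 7.93 to 38.1 CPM (1.90 ± 0.34, adjusted p = 2.2e-04), and *Neurod6*, a proneural-type bHLH gene, fell from 28.4 to 9.16 CPM (-1.91 ± 0.37, adjusted p = 6.7e-04), both with overlapping embryos.

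*Dmbx1*, a homeobox gene of the embryonic diencephalon and midbrain, had 0 UMIs in control and 27, 41.5 and 55.1 CPM in Eed-cKO (at least 35.4-fold higher, adjusted p = 5.7e-11). Of 8 Irx and Zic genes tested, which pattern the neural tube, 3 rose and 0 fell, and the median was -0.17. *Zic1* rose from a median of 235 to 484 CPM (0.86 ± 0.18, adjusted p = 0.0018), with overlapping embryos. *Zic2* was at 95.5 and 153 CPM (0.73 ± 0.20, adjusted p = 0.0285), and its call was lost without any of 5 embryos (adjusted p up to 0.109).

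Among polycomb genes the PRC1 subunit *Bmi1* rose. It was at 70.1, 79.1 and 97.2 CPM in control and 201, 223 and 325 CPM in Eed-cKO (log2 fold change 1.49 ± 0.13, 2.8-fold, adjusted p = 4.7e-11), with every Eed-cKO embryo above every control embryo. *Cbx6*, a PRC1 subunit that reads the H3K27me3 mark, was lower, with medians of 184 and 141 CPM (-0.47 ± 0.13, adjusted p = 0.0325), and its call was lost without any of 4 embryos (adjusted p up to 0.133). These were the 2 genes called of 19 PRC1 genes tested (median 0.14). Of 10 PRC2 genes tested, *Eed* among them, 0 passed the test (median 0.02), and their summed level was 826 to 949 CPM in control and 709 to 902 CPM in Eed-cKO.

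Of 7 cyclin-dependent kinase inhibitors, which stop the cell cycle, 3 rose and 0 fell, with a median of 0.41. As 2 of the 3 had 0 UMIs in control and passed the count filter through Eed-cKO alone, the count supports nothing about the group. *Cdkn2b* had 0 UMIs in control and 14, 27.5 and 67.2 CPM in Eed-cKO (at least 21.2-fold higher, adjusted p = 4.8e-08), and *Cdkn2a*, its neighbour, had 0 UMIs in control and 0, 6.7 and 15.3 CPM in Eed-cKO (at least 6.8-fold, adjusted p = 7.3e-04). *Cdkn2c* had 1 UMI in control, in replicate 5, and 44 in Eed-cKO, a ratio of 14.7 (95% counting interval 2.51 to 594; adjusted p = 0.0365). Its call was lost without any of 7 embryos (adjusted p up to 0.117).

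**Figure D3:**
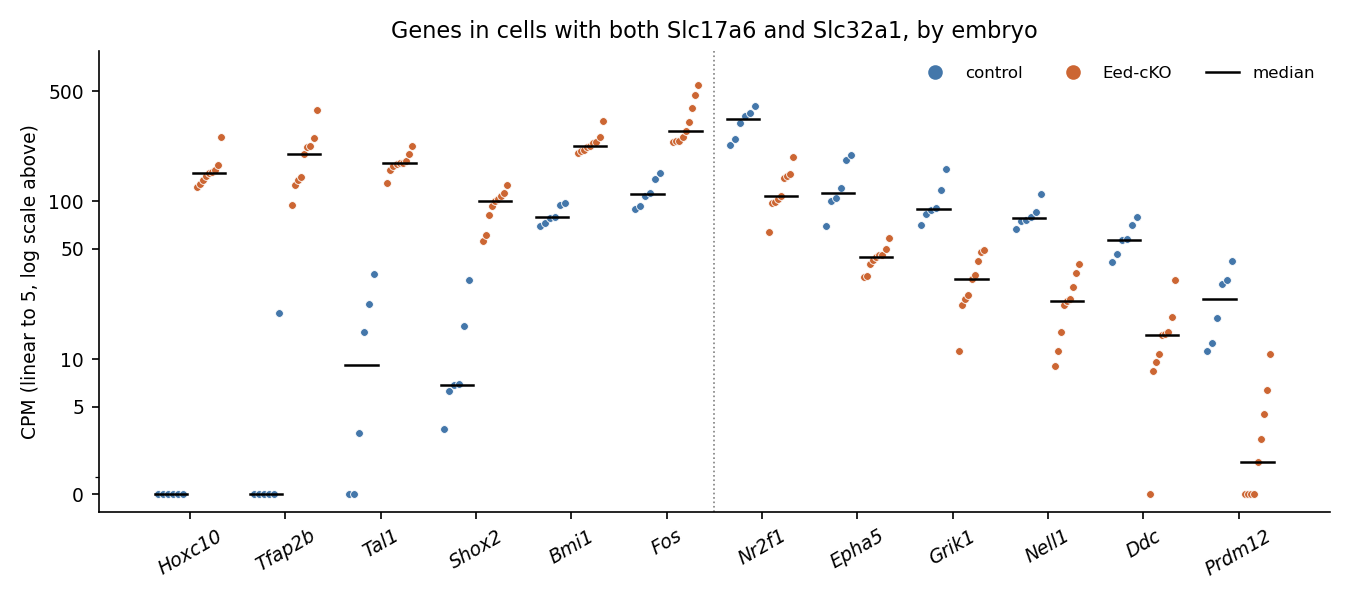
Each point is the level of a gene in the Glut/GABA cells of 1 embryo (CPM, linear to 5 and logarithmic above) and each bar the group median, for 6 genes that rose (left of the dotted line) and 6 that fell (right) in Eed-cKO. The 6 control and 9 Eed-cKO embryos do not overlap in any of the 12 genes, from Hoxc10 at 0 against 123 CPM or more to Nr2f1 at 229 CPM or more against 190 or less. Hoxc10 and the 6 genes that fell were chosen among genes without overlap, so that for them this follows from the choice.

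The 10 largest falls without overlap between genotypes included receptors, enzymes and a nuclear receptor gene. *Nr2f1*, a nuclear receptor gene of forebrain patterning, was at 229, 331 and 400 CPM in the lowest, median and highest control embryo and at 63.6, 108 and 190 CPM in Eed-cKO (log2 fold change -1.42 ± 0.15, 2.67-fold lower, adjusted p = 4.2e-09). *Epha5*, an ephrin receptor gene of axon guidance, fell from 69.4, 113 and 198 CPM to 33.1, 44.3 and 58.6 CPM (-1.49 ± 0.19, adjusted p = 3.4e-07). *Grik1*, a kainate receptor subunit, fell from 71, 89.2 and 161 CPM to 11.2, 32.1 and 49.1 CPM (-1.65 ± 0.20, adjusted p = 1.7e-07). In all 3 genes every control embryo lay above every Eed-cKO embryo, which follows from the choice of genes without overlap.

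*Nell1*, which encodes a secreted glycoprotein, fell from a median of 78.1 to 23.5 CPM (-1.68 ± 0.20, adjusted p = 1.8e-07), *Gda*, guanine deaminase, from 63 to 19.9 CPM (-1.80 ± 0.23, adjusted p = 4.4e-07) and *Chodl*, a membrane lectin, from 64.6 to 18.4 CPM (-1.55 ± 0.23, adjusted p = 6.4e-06). *Chodl* was at -0.63 (adjusted p = 0.716) where 2 UMIs of both transporters were asked and at -0.83 (adjusted p = 0.831) with cells thinned to 2000 UMIs. *Cpne4*, a calcium-dependent lipid-binding protein, fell from 29.5 to 10.8 CPM (-2.15 ± 0.34, adjusted p = 2.6e-05). *Prdm12*, a zinc-finger gene of sensory and hypothalamic neurons, fell from 11.2, 24.1 and 41.7 CPM to 0, 1.82 and 10.7 CPM (-2.75 ± 0.48, adjusted p = 1.4e-04; -3.51 without Eed-cKO replicate 5). *Kcnv1*, a modifier subunit of potassium channels, was at a median of 11.6 and 4.42 CPM (-1.73 ± 0.44, adjusted p = 0.0146; 0.112 without control replicate 6). Without the cells that had 3 or more glial markers, *Prdm12* (-1.92, adjusted p = 0.0749) and *Kcnv1* (-1.67, adjusted p = 0.152) no longer passed.

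Several genes of monoamine synthesis and storage were lower in Glut/GABA cells of Eed-cKO embryos. Of 8 listed, 7 were in the table and 5 were tested, and 4 fell and 0 rose, with a median log2 fold change of -1.73. Their summed level was 113, 150 and 198 CPM in control and 20.1, 44.8 and 54.8 CPM in Eed-cKO, without overlap. *Ddc*, which encodes aromatic amino acid decarboxylase, fell from 41.1, 57 and 79.8 CPM to 0, 14.2 and 31.8 CPM (-1.89 ± 0.25, adjusted p = 1.3e-06), but was at 0.28 (adjusted p = 0.942) where 2 UMIs of both transporters were asked. *Slc18a2*, the vesicular monoamine transporter gene, fell from 38.2, 51 and 59.8 CPM to 8.38, 14.9 and 44.8 CPM (-1.73 ± 0.24, adjusted p = 2.1e-06), and was at -0.25 (adjusted p = 0.942) under the same stricter choice.

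*Th*, tyrosine hydroxylase, had 83 control and 70 Eed-cKO UMIs and was lower (medians 21.2 and 7.82 CPM, -1.63 ± 0.37, adjusted p = 0.00468), and without control replicate 5 it was at -0.92 (adjusted p = 0.25). *Slc6a3*, the dopamine transporter gene, was at 0, 2.27 and 89.6 CPM in control and 0, 1.42 and 3.54 CPM in Eed-cKO (-3.65 ± 0.68, adjusted p = 3.7e-04; -2.81 without control replicate 2). DESeq2 did not call it (adjusted p = 0.0527). Its medians lay close together, and its control UMIs lay in replicates 2, 3 and 5 (24, 2 and 33 UMIs). Its call held with any single embryo left out.

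Neuropeptide genes had no common direction. Of 26 tested of 34 listed, 3 rose and 4 fell, with a median of -0.21, and their summed level was 705 to 2089 CPM in control and 627 to 1735 CPM in Eed-cKO. Of those tested, 1 had 0 UMIs in control and passed the count filter through Eed-cKO alone, so that it adds nothing to the count. *Pnoc*, the nociceptin precursor gene, rose from 51, 73.7 and 122 CPM to 142, 179 and 233 CPM (1.01 ± 0.15, adjusted p = 1.5e-05), without overlap. *Cartpt*, the precursor gene of a peptide of feeding control, rose from 0, 5.86 and 60.6 CPM to 28.4, 56.4 and 163 CPM (1.82 ± 0.43, adjusted p = 0.00759), which DESeq2 did not call (adjusted p = 0.159). *Pdyn*, the prodynorphin gene, was at medians of 43.1 and 21.4 CPM (-1.09 ± 0.26, adjusted p = 0.00713), and its call was lost without control replicate 3 or 6 (adjusted p up to 0.0617, -0.91 in both). *Pmch*, the gene of melanin-concentrating hormone, was at 545 CPM in control replicate 1 and at a median of 1.87 CPM in control and 0 in Eed-cKO. Its log2 fold change was -3.75 ± 0.74 (adjusted p = 9.0e-04), -2.29 without control replicate 1 (adjusted p = 0.0768) and -7.06 without Eed-cKO replicate 5.

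Of 5 genes of GABA synthesis and transport tested, 1 rose, *Abat*, which encodes the enzyme that breaks GABA down, from 63.5, 117 and 128 CPM to 123, 178 and 196 CPM (0.69 ± 0.14, adjusted p = 0.00122). *Gad1* was at 344, 482 and 670 CPM in control and 540, 627 and 804 CPM in Eed-cKO (0.36 ± 0.12, adjusted p = 0.0932), and *Gad2* at 186, 233 and 333 CPM against 165, 205 and 254 CPM (-0.24 ± 0.13, adjusted p = 0.415). Neither passed the test, though *Gad1* did without control replicate 3 (0.47, adjusted p = 0.0231), with each library as a sample (0.40, adjusted p = 0.00502), where 2 UMIs of both transporters were asked (0.78, adjusted p = 0.00538) and with cells thinned to 2000 UMIs (0.98, adjusted p = 0.0245). Most embryos gave several libraries, so that the samples of the setting by library are not independent. Of 4 genes of glutamate packaging and synthesis and 3 of acetylcholine and glycine tested, 0 passed, with medians of 0.03 and 0.55.

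Of 23 glutamate receptor genes tested, 3 fell and 1 rose (median -0.16), and of 15 GABA and glycine receptor genes 1 fell and 0 rose (median -0.33). Beside *Grik1*, *Grin3a*, an NMDA receptor subunit, fell from 101, 143 and 226 CPM to 22.4, 71.2 and 101 CPM (-0.99 ± 0.18, adjusted p = 3.0e-04). *Gria4*, an AMPA receptor subunit, was higher (medians 86.8 and 125 CPM, 0.50 ± 0.15, adjusted p = 0.0472), and its call was lost without any of 11 embryos (adjusted p up to 0.163). *Gabrb2*, a GABA receptor subunit, fell from a median of 280 to 191 CPM (-0.60 ± 0.15, adjusted p = 0.00842; 0.0592 without control replicate 4).

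Of 22 genes of vesicle release tested, 1 was higher, *Snap25*, a subunit of the fusion machinery (medians 539 and 696 CPM, 0.43 ± 0.11, adjusted p = 0.0149; 0.0677 without control replicate 1), and 0 were lower. Over all genes tested 4.03% passed, and a count near that share says nothing about the list. Of 13 pan-neuronal genes 2 were higher and 0 lower (median 0.12): *Rbfox3*, which encodes NeuN (0.57 ± 0.15, adjusted p = 0.0167, lost without control replicate 3, 4 or 6, adjusted p up to 0.0792), and *Nefl*, a neurofilament gene (0.55 ± 0.16, adjusted p = 0.0386, lost without any of 9 embryos, adjusted p up to 0.145). The pan-neuronal sum was 14216, 16542 and 18220 CPM in control and 14905, 15894 and 17581 CPM in Eed-cKO, so that Glut/GABA cells of both genotypes carried neuronal genes at overlapping levels.

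Among 25 adhesion and axon guidance genes tested, 4 fell and 1 rose, with a median of -0.36. *Efnb2*, an ephrin gene, fell from 40.5, 58.9 and 85.9 CPM to 13.4, 24.8 and 33.6 CPM (-1.35 ± 0.22, adjusted p = 7.4e-05) without overlap, as did *Epha5* above. *Sema3a*, a secreted guidance cue, rose from a median of 8.94 to 35.6 CPM (1.47 ± 0.33, adjusted p = 0.00347). *Cdh8*, a cadherin gene, was at medians of 62.9 and 42.6 CPM (-0.94 ± 0.23, adjusted p = 0.00997), and without control replicate 4, which was at 205 CPM, at -0.54 (adjusted p = 0.136).

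Several immediate early and stress genes were higher in Eed-cKO, and not in Glut/GABA cells alone. In Glut cells 8 of 10 tested rose (median 1.03) and in GABA cells 9 of 10 (median 1.13). In Glut/GABA cells, of 10 tested, 6 rose and 0 fell, with a median of 1.10. Their summed level there was 260, 360 and 486 CPM in control and 563, 817 and 1390 CPM in Eed-cKO. *Fos*, a subunit of the AP-1 factor that neurons induce on activity and on dissociation, rose from 89.2, 111 and 152 CPM to 236, 279 and 545 CPM (1.51 ± 0.18, adjusted p = 1.1e-07), and *Fosb* from 3.73, 20.1 and 24.3 CPM to 33.6, 70.4 and 141 CPM (2.25 ± 0.29, adjusted p = 4.9e-07). *Jun* (0.98 ± 0.19, adjusted p = 5.0e-04) and *Egr1* (1.22 ± 0.25, adjusted p = 0.00119) were higher with overlapping embryos. Where 2 UMIs of both transporters were asked, *Fos* was at 0.95 (adjusted p = 0.101), *Fosb* at 1.17 (0.292) and *Egr1* at 0.22 (0.905), and none of the 3 passed. With cells thinned to 2000 UMIs *Fosb* (2.20, adjusted p = 0.298), *Jun* (0.17, 0.938) and *Egr1* (-0.28, 0.917) did not pass. Tissue handling by litter cannot be told apart from genotype here.

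Markers of other cell types moved in part with genotype, and the results without the cells that had 3 or more glial markers are given above. In Glut cells 4 of 11 astrocyte, 4 of 7 ependymal and tanycyte and 6 of 9 progenitor markers tested were higher. In GABA cells these counts were 4 of 10, 4 of 5 and 5 of 7, and 0 of these markers were lower in either class. In Glut/GABA cells astrocyte markers summed to 146, 335 and 639 CPM in control and 304, 448 and 1122 CPM in Eed-cKO, with 2 of 10 tested higher and 0 lower (median 0.81). The most abundant was *Slc1a2*, a glutamate transporter gene, which rose from a median of 93.4 to 168 CPM (0.82 ± 0.13, adjusted p = 5.2e-05), and *Aldoc*, an aldolase gene, rose from 32.4 to 104 CPM (1.34 ± 0.23, adjusted p = 9.1e-05). Oligodendrocyte-lineage markers summed to 97.2, 150 and 203 CPM and 74.8, 112 and 139 CPM, with 1 of 6 tested lower, 0 higher and a median log2 fold change of -0.31.

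Ependymal and tanycyte markers summed to 34.7, 83.7 and 97.1 CPM in control and 58.3, 92.7 and 427 CPM in Eed-cKO, with 2 of 4 tested higher. *Vim*, an intermediate filament gene and the most abundant of them (1.04 ± 0.31, adjusted p = 0.0451), and *Crym* (2.53 ± 0.74, adjusted p = 0.042) lost their calls without any of 10 and 9 embryos (adjusted p up to 0.147 and 0.137; *Crym* 1.88 without Eed-cKO replicate 3), and *Vim* did without the cells that had 3 or more glial markers (0.29, adjusted p = 0.793). Progenitor and proliferation markers summed to a median of 212 CPM in control and 202 CPM in Eed-cKO and to means of 203 and 233 CPM (SD 45.1 and 111), led by *Sox2*. Of 8 tested, 2 were higher and 0 lower, and the median log2 fold change was 1.46. *Nes*, an intermediate filament gene of progenitors, had 7 control and 126 Eed-cKO UMIs (2.41 ± 0.57, adjusted p = 0.00723), and *Hes1*, a Notch target, was called at 1.97 ± 0.59 (adjusted p = 0.0458) and lost without any of 9 embryos (adjusted p up to 0.196; 1.22 without Eed-cKO replicate 3).

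Vascular and leptomeningeal markers summed to 0, 16.1 and 27.3 CPM in control and 3.35, 22.4 and 63.6 CPM in Eed-cKO, led by *Col1a2*, and the 1 gene tested was *Dcn* (0 and 44 UMIs, at least 4.9-fold higher, adjusted p = 0.037, lost without any of 6 embryos, adjusted p up to 0.0909, and without the largest library, adjusted p = 0.0672). Microglial markers summed to 0, 1.59 and 4.63 CPM and 0, 1.42 and 21.6 CPM, led by *Cx3cr1*, and none was tested. Pituitary markers summed to 0, 0 and 2.27 CPM and 5.03, 10.6 and 93.4 CPM, led by *Pitx1*, a homeobox gene also of hindlimb, which had 0 control and 80 Eed-cKO UMIs (at least 8.91-fold higher, adjusted p = 1.2e-04). No marker in the table of these 7 lists was at 0 over all embryos.

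Single cells were then counted by marker class, each cell thinned to 2000 UMIs so that depth is equal. A Hox transcript was found in 0%, 0% and 0.794% of the Glut/GABA cells of the lowest, median and highest control embryo (1 of 306 cells) and in 60%, 69.8% and 76.3% in Eed-cKO (736 of 1059). The means differed by 68.6 percentage points (two-sided exact permutation of the genotype labels, 5005 arrangements, p = 2.0e-04, the smallest it can give, adjusted p = 1.0e-03 over 15 classes), and without thinning the means were 0.265% and 82.9%. For all classes the permutation took embryos of the same litter as independent, and the shares were not tested by litter. Glut and GABA cells of Eed-cKO had 24% and 44.2%, against 0% and 0.075% in control. In non-neural cells the share was 0.508% in control (197 cells) and 14.9% in Eed-cKO (369 cells), with median depths of 5213 and 5335 UMIs before thinning. The part of RNA from broken cells in the droplets was not tested.

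*Tfap2a* or *Tfap2b* was found in 0%, 0% and 1.59% of the Glut/GABA cells of a control embryo (2 of 306) and in 13.9%, 23.1% and 30% in Eed-cKO (219 of 1059), again without overlap (exact permutation p = 2.0e-04, adjusted 1.0e-03; unthinned means 0.265% and 34.1%). The non-neural shares were 2.03% in control and 5.96% in Eed-cKO, and Glut and GABA cells of Eed-cKO had 7.18% and 9.64%. *Pax2* or *Pax8* was found in 0 of 306 control cells and in 2.59%, 4.3% and 8.05% of an Eed-cKO embryo's cells (exact permutation p = 2.0e-04, adjusted 1.0e-03; unthinned means 0% and 10.3%; non-neural 0.508% and 0.542%). This call was lost where 2 UMIs of both transporters were asked (a difference of 4.88 against 4.56 percentage points, adjusted p = 0.121).

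*Gad1* or *Gad2* was found in 50%, 58.5% and 71.1% of control and 63.7%, 73.3% and 80% of Eed-cKO Glut/GABA cells (exact permutation p = 8.0e-04, adjusted 0.003; unthinned means 77% and 89.9%). The ranges overlapped. In Glut cells the share was 10.6% and 31%, in GABA cells 84.8% and 77.6%, and in non-neural cells 7.11% and 13%. These genes were not used to choose the cells, but they accompany *Slc32a1*, which was.

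The other 11 classes did not pass the test. The Dlx family was found in 25% to 45.9% of control (median 32.3%) and 18.3% to 35% of Eed-cKO cells (median 28.2%; exact permutation p = 0.0695, adjusted 0.209), *Foxb1*, a marker of the mammillary area, in medians of 4.06% and 3.01% (exact permutation p = 0.0993, adjusted 0.226) and any neuropeptide gene in 57.8% and 65.5% (exact permutation p = 0.105, adjusted 0.226). For *Lhx1* or *Lhx5*, *Sp8*, *Sp9* or *Lhx6*, *Hmx2* or *Hmx3*, *Lhx9* or *Gbx2*, the Neurod genes, the Barhl genes, the Ebf genes and *Nr5a1* or *Fezf1*, adjusted p lay between 0.243 and 0.822. The neuropeptide share passed without Eed-cKO replicate 9 (a difference of 10.4 percentage points, adjusted p = 0.031) and the Barhl share without control replicate 1 (-3.95, adjusted p = 0.0195). The *Foxb1* share passed where 2 UMIs of both transporters were asked (-8.63 against -2.12 percentage points, adjusted p = 0.0303).

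**Figure D4:**
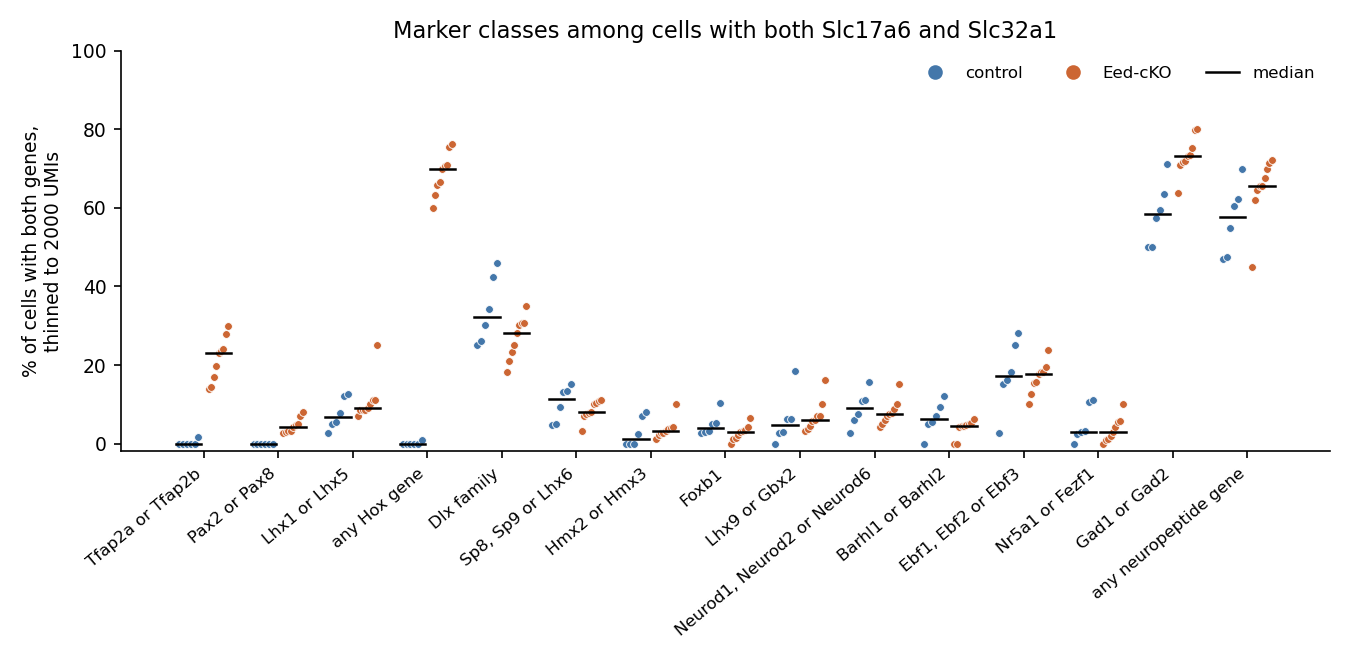
Each point is the share of 1 embryo's Glut/GABA cells (%, thinned to 2000 UMIs) with at least 1 UMI of the class on the horizontal axis, and each bar the group median over 6 control or 9 Eed-cKO embryos. The classes any Hox gene, Tfap2a or Tfap2b, and Pax2 or Pax8 do not overlap between genotypes, and Gad1 or Gad2 differs with overlap.

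Within the single-transmitter classes, 1422 of 14534 genes passed in Glut cells (9.78%; 852 higher, 5.86%, and 570 lower, 3.92%) and 1343 of 12929 in GABA cells (10.4%; 602 higher, 4.66%, and 741 lower, 5.73%). Control held 2472 Glut and 1333 GABA cells but 306 Glut/GABA cells. The classes thus differ in what a test can detect, and these shares do not compare the size of the effect between them. The effect of genotype in Glut/GABA cells was next set against that in Glut cells of the same embryos, by the interaction of genotype and class with the embryo as a term. It differed for 206 of 14954 genes (1.38%), 127 of them with a higher (0.849%) and 79 with a lower (0.528%) effect in Glut/GABA cells. Among the differences with the smallest adjusted p, *Gad1* rose in Glut cells (32.8, 42.3 and 78.5 CPM in control, 145, 223 and 334 CPM in Eed-cKO, 2.14 ± 0.18, adjusted p = 6.2e-09) and its difference in effect was -1.72 ± 0.15 (adjusted p = 1.1e-14). *Gad2* rose in Glut cells by 1.46 ± 0.18 (difference -1.67 ± 0.17, adjusted p = 2.0e-11). The classes were chosen on *Slc32a1*, which GABA-synthesis genes accompany, and how far the choice of cells enters these differences was not tested.

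*Shox2*, a homeobox gene of thalamic and spinal neurons, rose in Glut/GABA cells from 3.73, 6.88 and 31.9 CPM to 56, 101 and 127 CPM (2.93 ± 0.26, adjusted p = 6.7e-11), while Glut cells had medians of 31.2 and 26.8 CPM (difference in effect 2.89 ± 0.31, adjusted p = 9.1e-11). It rose in GABA cells too (medians 1.35 and 48.5 CPM, 4.07 ± 0.38, adjusted p = 2.2e-10), and the difference from them did not pass (-0.81 ± 0.44, adjusted p = 0.552). *Rbfox1*, a splicing regulator gene, rose from 182, 221 and 259 CPM to 336, 429 and 524 CPM (0.93 ± 0.12, adjusted p = 1.3e-06), against 0.01 ± 0.10 in Glut cells (difference 0.94 ± 0.10, adjusted p = 1.4e-10). *Elmod1*, which encodes a GTPase-activating protein, rose by 0.88 ± 0.12 (difference 0.86 ± 0.10, adjusted p = 3.9e-09) and *Vstm2l* by 1.44 ± 0.15 (difference 0.80 ± 0.11, adjusted p = 2.7e-07). These 4 genes had no overlap between the genotypes in Glut/GABA cells.

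*Tcf7l2*, a Wnt effector abundant in thalamic neurons, fell more in Glut cells (728 to 64.7 CPM in the median, -2.65 ± 0.44) than in Glut/GABA cells (336 to 97.2 CPM, -1.43 ± 0.39, adjusted p = 0.023, lost without control replicate 1, 2 or 6, adjusted p up to 0.185; difference 1.44 ± 0.18, adjusted p = 1.4e-08). *Zeb2*, a zinc-finger repressor gene, was at medians of 66.2 and 21 CPM in Glut/GABA cells (-1.43 ± 0.30, adjusted p = 0.00175) and 31.9 and 45.2 CPM in Glut cells (difference -1.89 ± 0.24, adjusted p = 3.9e-08). *Peg10*, an imprinted gene (difference -0.92 ± 0.11, adjusted p = 1.3e-08), and *Tcf4*, a bHLH gene (difference -0.88 ± 0.12, adjusted p = 2.7e-07), had negative effects in Glut/GABA cells (-0.50 ± 0.19 and -0.60 ± 0.17) and positive ones in Glut cells (0.46 ± 0.20 and 0.34 ± 0.16). *Tcf4* passed the test in Glut/GABA cells (adjusted p = 0.0365) but not without any of 7 embryos (adjusted p up to 0.2). *Peg10* did not pass in Glut/GABA cells (adjusted p = 0.146) but did without Eed-cKO replicate 5 (-0.67, adjusted p = 0.0181) and without cells that had 3 or more glial markers (-0.76, adjusted p = 0.013). With cells thinned to 2000 UMIs none of the 10 differences from Glut cells named here passed (adjusted p from 0.0575 for *Gad1* to 0.982 for *Zeb2*). The differences were then 1.76 for *Shox2*, 1.40 for *Tcf7l2*, 0.90 for *Elmod1*, 0.80 for *Rbfox1*, 0.58 for *Vstm2l*, -1.20 for *Gad1*, -1.04 for *Gad2*, -0.70 for *Tcf4* and -0.31 for *Peg10*, and that of *Zeb2* changed sign to 0.33.

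**Figure D5:**
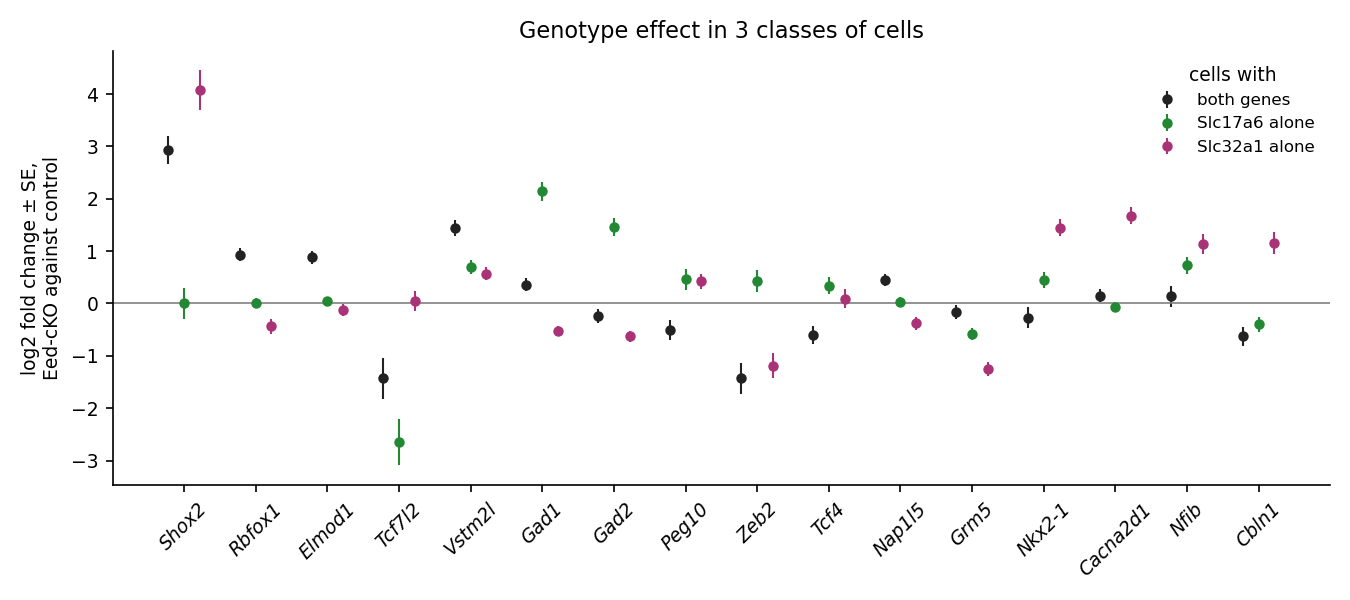
Points are fitted log2 fold changes between Eed-cKO and control embryos with their standard errors, in cells with both transporters, with Slc17a6 alone and with Slc32a1 alone, for the 16 genes with the smallest adjusted p of the 2 interaction tests. Gad1 is near 0.36 in cells with both, 2.14 with Slc17a6 alone and -0.53 with Slc32a1 alone.

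Against GABA cells the effect differed for 273 of 13967 genes (1.95%), 205 with a higher (1.47%) and 68 with a lower (0.487%) effect in Glut/GABA cells. *Gad1* fell in GABA cells (-0.53 ± 0.10, adjusted p = 1.9e-04; difference in effect 0.87 ± 0.10, adjusted p = 7.3e-10), *Rbfox1* was at -0.44 ± 0.14 there (difference 1.32 ± 0.14, adjusted p = 2.0e-11) and *Elmod1* at -0.13 ± 0.11 (difference 0.98 ± 0.13, adjusted p = 2.2e-08). *Nap1l5*, an imprinted gene, was at medians of 797 and 1119 CPM in Glut/GABA cells (0.45 ± 0.11, adjusted p = 0.0111; 0.0551 without control replicate 1) and 1135 and 892 CPM in GABA cells (difference 0.80 ± 0.10, adjusted p = 7.3e-10). *Grm5*, a metabotropic glutamate receptor gene, fell in GABA cells from 325 to 129 CPM (-1.25 ± 0.13) and was at 252 and 235 CPM in Glut/GABA cells (-0.16 ± 0.13, adjusted p = 0.657; difference 1.04 ± 0.13, adjusted p = 1.3e-08).

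*Nkx2-1*, a homeobox gene of the ventral hypothalamus, rose in GABA cells from 49.7 to 148 CPM (1.45 ± 0.16) and was at 88 and 69 CPM in Glut/GABA cells (-0.27 ± 0.20, adjusted p = 0.597), a difference of -1.78 ± 0.20 (adjusted p = 2.6e-10). *Cacna2d1*, a calcium channel subunit, showed 40.4 and 140 CPM in GABA cells and 185 and 186 CPM in Glut/GABA cells (difference -1.52 ± 0.18, adjusted p = 7.3e-10), and *Nfib*, a nuclear factor gene, 207 and 421 CPM against 226 and 215 CPM (difference -1.06 ± 0.14, adjusted p = 1.7e-08). *Cbln1*, a synapse organizer gene, rose in GABA cells (1.16 ± 0.21) and was lower in Glut/GABA cells (-0.63 ± 0.18, adjusted p = 0.0333; lost without control replicate 2, 3 or 6, adjusted p up to 0.269), a difference of -1.72 ± 0.24 (adjusted p = 2.5e-07). *Peg10* differed by -0.99 ± 0.11 (adjusted p = 2.4e-10). With cells thinned to 2000 UMIs only *Gad1* and *Nap1l5* of the 10 genes named here kept a difference past the threshold. The others kept their sign but were smaller: -1.45 for *Cbln1*, -1.31 for *Nkx2-1*, -1.23 for *Cacna2d1*, -0.55 for *Nfib*, -0.20 for *Peg10*, 0.78 for *Grm5*, 0.81 for *Elmod1* and 0.84 for *Rbfox1* (adjusted p from 0.486 to 0.924).

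For some of the other genes described above no difference from the single-transmitter cells passed the threshold, and for others it did. The values in this paragraph are from cells that were not thinned. With cells thinned to 2000 UMIs only 10 genes in all passed against Glut cells and 18 against GABA cells, from 3 control and 8 Eed-cKO embryos. Most of the differences listed here are therefore not shown to hold at equal depth. *Bmi1* had effects of 1.12 ± 0.10 in Glut and 1.58 ± 0.12 in GABA cells (adjusted p of the difference 0.365 and 0.845), *Nr2f1* of -1.37 ± 0.19 and -1.65 ± 0.12 (0.847 and 0.798) and *Fos* of 1.11 ± 0.13 and 1.23 ± 0.18 (0.543 and 0.704). Of the 10 largest falls, 6 differed in effect from Glut cells and 2 of these, *Ddc* and *Chodl*, also from GABA cells. The other 4 were *Cpne4* (-1.50 ± 0.30, adjusted p = 8.2e-04), *Grik1* (-0.85 ± 0.20, 0.00597), *Nell1* (-0.91 ± 0.21, 0.00822) and *Epha5* (-0.62 ± 0.17, 0.0298). Differences from Glut cells also passed for *Tfap2b* (2.21 ± 0.51, 0.00611), *Tal1* (-2.46 ± 0.51, 0.00185), *Efnb2* (-0.99 ± 0.21, 0.00239), *Dlx1* (-1.62 ± 0.22, 2.7e-07) and *Lhx6* (-3.01 ± 0.48, 1.2e-05). They passed as well for *Tbr1* (1.61), *Zic2* (1.26), *Aldoc* (0.99), *Zic1* (0.84), *Nefl* (0.70), *Rbfox3* (0.54), *Snap25* (0.52), *Slc1a2* (0.50), *Nap1l5* (0.45), *Grm5* (0.42), *Nfib* (-0.58), *Nkx2-1* (-0.79), *Pdyn* (-0.83) and *Neurod6* (-1.48), with adjusted p up to 0.0478. From GABA cells the effect also differed for *Meis2* (1.32 ± 0.18, 1.7e-07), *Aldoc* (1.31), *Six6* (1.23), *Pnoc* (0.96), *Vstm2l* (0.90), *Nefl* (0.83), *Snap25* (0.69), *Tcf4* (-0.76), *Tcf7l2* (-1.40), *Lhx6* (-1.43), *Pdyn* (-1.71) and *Tbr1* (-2.56), with adjusted p up to 0.00706. *Ddc* was at -0.35 ± 0.19 in Glut and -0.29 ± 0.28 in GABA cells, and the difference passed the threshold for both (-1.59 ± 0.31, adjusted p = 4.5e-04, and -1.64 ± 0.32, adjusted p = 2.6e-04). *Chodl* behaved alike, with differences of -1.36 ± 0.24 (adjusted p = 8.1e-05) and -1.05 ± 0.28 (adjusted p = 0.018). Both differences passed for *Slc18a2* too (-1.85 ± 0.26, adjusted p = 7.2e-07, and -1.06 ± 0.30, adjusted p = 0.0384), but it also fell in GABA cells (-0.71 ± 0.21, adjusted p = 0.0217). Where 2 UMIs of both transporters were asked, the effect in Glut/GABA cells was 0.28 for *Ddc*, -0.63 for *Chodl* and -0.25 for *Slc18a2*. None of these 3 effects passed, and the differences between classes were not tested under that choice. For 66 genes against Glut cells and 68 against GABA cells, among them *Hoxc10* and *Hoxb13*, control had 0 UMIs in both classes and the difference in effect could not be fitted.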

How the data were processed

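Single cells of the E18.5 hypothalamus were measured on the ddSEQ platform. The authors aligned the reads to mm10 with STAR 2.5.2b and SAMtools 1.3 in the SureCell pipeline and deposited whole-number UMI counts per gene and cell, which were used as deposited. The table held 14121 cells, the number the authors state after their filter, and reapplying that filter removed 0. Cells had a median of 4549 UMIs, the lowest 601. The non-neural limit and the minimum of 2000 UMIs were applied here.

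UMIs were summed per embryo (at least 10 cells each). Genes with at least 15 UMIs over embryos, 2 in 1 embryo and a UMI in 6 embryos were tested with edgeR 4.0.16 (TMM, quasi-likelihood) in R 4.3.3, with Benjamini-Hochberg adjustment. The interaction tests added the embryo and the cell class as terms. The SE of a log2 fold change was derived from the test, as the absolute fold change divided by the square root of its F statistic. CPM was computed here with TMM-scaled totals. Alternatives used DESeq2 1.42.0 and limma 3.58.1. Marker classes were compared by an exact permutation test over embryos after thinning. Doublets were scored per library with Scrublet (scanpy 1.11.5) in Python 3.11.15 and kept, with the 6% highest left out as an alternative. The steps were tested on simulated data. Counting intervals and floors cover counting error only.

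The members and the 27 gene lists were chosen with earlier results of these data known. Genes named were polycomb genes that passed, genes the study names (*Tfap2a*, *Tfap2b*, *Pax2*, *Pax8*, *Lhx5*, *Npff* and both transporters), the 10 largest rises and falls among called genes with at least 60 UMIs and no overlap, up to 4 members of each list with the smallest adjusted p, and 5 genes per direction of each interaction. Some genes that met these rules are not reported here. Of 91 named genes, 52 overlap another annotated gene and their counts are uncertain to that extent.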

Additional observations from a re-analysis of the deposited data

Results flagged for a closer look

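In 28 of 196 groups of embryos tested, the highest or lowest embryo lay far from the others of its genotype. How many groups chance alone would give was not measured. Control replicate 5, which holds the largest library, was far above the other control embryos in its share of Glut/GABA cells (11%), its odds ratio of co-detection (0.317), the shares of these cells with *Tfap2a* or *Tfap2b* (1.59%), any Hox gene (0.794%) and *Foxb1* (10.3%), and its levels of *Tfap2b* (19.7 CPM) and *Cdkn2c* (1.16 CPM). Control replicate 1 stood out in the share with *Lhx9* or *Gbx2* (18.4%), in *Pmch* (545 CPM) and, at the low end, in *Snap25* (325 CPM), and control replicate 4 in *Cdh8* (205 CPM).

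Among Eed-cKO embryos, replicate 9, with 20 Glut/GABA cells the embryo with the fewest, stood out most often. Its shares with *Lhx1* or *Lhx5* (25%) and *Hmx2* or *Hmx3* (10%) were high and its neuropeptide share (45%) was low. Its levels were high for *Bmi1* (325 CPM), *Hoxc10* (257 CPM), *Dlx1* (157 CPM), *Six6* (134 CPM), *Cdkn2b* (67.2 CPM), *Slc18a2* (44.8 CPM) and *Pitx1* (44.8 CPM). Replicate 2 was high in *Pou4f2* (41.2 CPM) and *Cartpt* (163 CPM), replicate 3 in *Hes1* (93.4 CPM) and *Egr1* (163 CPM), replicate 5 in *Pmch* (44.1 CPM) and *Nfib* (414 CPM), and replicate 7 in *Tcf7l2* (466 CPM).

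The effect of genotype differed between Glut/GABA and Glut cells, by the interaction test, for *Shox2* (a difference in log2 fold change of 2.89), *Tcf7l2* (1.44), *Rbfox1* (0.94), *Elmod1* (0.86), *Vstm2l* (0.80), *Zeb2* (-1.89), *Gad1* (-1.72), *Gad2* (-1.67), *Peg10* (-0.92) and *Tcf4* (-0.88). Between Glut/GABA and GABA cells it differed for *Rbfox1* (1.32), *Grm5* (1.04), *Elmod1* (0.98), *Gad1* (0.87), *Nap1l5* (0.80), *Nkx2-1* (-1.78), *Cbln1* (-1.72), *Cacna2d1* (-1.52), *Nfib* (-1.06) and *Peg10* (-0.99).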

How the results depend on the processing

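The 525 genes that differed in Glut/GABA cells became 267 with limma's TREAT test, 339 with a stricter filter that tested 8433 genes, 1024 with each library taken as a sample, 112 where 2 UMIs of both transporters were asked and 39 with cells thinned to 2000 UMIs. The last 2 settings left 3 control and 8 Eed-cKO embryos. Most embryos gave several libraries, so that the count of 1024 rests on samples that are not independent. Leaving out 1 embryo gave 392 to 581 genes, and leaving out the largest library, an alternative chosen after seeing the data, gave 627. The differences in effect fell to 10 genes against Glut cells and 18 against GABA cells with thinning, and lay between 154 and 233 and between 234 and 377 without 1 embryo. Of the results compared, which include some that did not pass the test, DESeq2 left 73 with the same direction and the same side of the threshold and lost the call of 16. In the same sense TREAT left 66 and lost 23, thinning left 20, lost 59 with the sign unchanged and turned the sign of 8, and asking for 2 UMIs of both transporters left 49, lost 41 with the sign unchanged and turned the sign of 7. Without the largest library 121 were left and 2 lost.

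Some values changed sign. With thinning *Eed* was at -0.92, *Lhx5* at -0.41, *Lhx6* at 0.45, *Gabrb2* at 0.03, *Egr1* at -0.28, *Gad2* at 0.50, *Nfib* at -0.01 and the difference in effect of *Zeb2* from Glut cells at 0.33. With 2 UMIs asked *Eed* was at -0.53, *Ddc* at 0.28, *Gad2* at 0.26 and *Peg10* at 0.43, and the differences in share were -4.51 percentage points for *Hmx2* or *Hmx3*, 1.03 for *Nr5a1* or *Fezf1* and -1.05 for neuropeptide genes. *Nfib* was at -0.00 with sex as a covariate and -0.04 without the highest doublet scores. Without thinning the differences in share were -2.05 for *Hmx2* or *Hmx3*, 0.693 for the Barhl genes, 1.32 for the Ebf genes and 1.03 for *Nr5a1* or *Fezf1*, and without the largest library -0.205 for *Hmx2* or *Hmx3*. Over the embryos left out in turn, *Eed* ranged from -0.06 to 0.31, *Nfib* from -0.07 to 0.28, and the differences in share from -0.31 to 3.37 for *Lhx9* or *Gbx2* (-0.221 without Eed-cKO replicate 7), from -2.31 to 0.285 for the Neurod genes and from -3.76 to 1.34 for the Ebf genes (0.712 without control replicate 3 and 0.0646 without Eed-cKO replicate 9). The cause was not tested.

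Few control cells limit what could be seen: 306 cells from 6 embryos, of which 111 came from 1 library. No paired analysis was possible because replicate numbers are names given in accession order and no litter held both genotypes.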
